A study of Mus musculus with 4 samples.

Results

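The genes described here build the centromere and kinetochore, run the spindle assembly checkpoint or drive cells through mitosis. They were named as a list of 39 genes, and a gene was measured where the array annotation gave a feature (probe set) that symbol alone. Of the 39 genes 37 had such a feature, among 18920 genes and 22431 features in all, and each had exactly 1 feature. Cenpi and Hjurp were not analysed here. The samples were retinal cells of BAC-Crx-EGFP transgenic mice on the 129Sv/Ev background at E17.5. Sorting gave EGFP-positive and EGFP-negative fractions, with 2 replicates of each and 1 Affymetrix array per replicate. Both fractions carried the transgene, in which Crx regulatory sequences on a bacterial artificial chromosome drive the enhanced green fluorescent protein. The labels do not state how many animals or litters went into a replicate, so each p-value reflects the spread among these 4 samples alone, and that spread may be technical.

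A kinetochore is the protein assembly that attaches a chromosome to spindle microtubules. It is built on centromeric chromatin that contains the histone variant CENP-A. The spindle checkpoint holds cells in metaphase until every kinetochore is attached, by inhibiting the ubiquitin ligase called the anaphase-promoting complex. In the embryonic retina dividing progenitors express these genes, while photoreceptor precursors such as those marked by Crx have left the cell cycle.

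The deposited values are normalised intensities on a linear scale, in arbitrary units, and differences are given as EGFP-positive minus EGFP-negative on the log2 scale with limma's standard error (SE) of the fit to 2 arrays per fraction. A gene was called at an adjusted p under 0.05, with Benjamini-Hochberg adjustment across the 22431 features. The sort was visible in the photoreceptor gene Crx, which read 3628.7 and 4758.8 in the EGFP-positive replicates, against 292.2 and 370.1 in the EGFP-negative ones. The progenitor gene Sox2 read 921.5 and 917.5 in the EGFP-positive and 2404.7 and 2318.8 in the EGFP-negative fraction. Of 11 measured progenitor genes, 9 had a lower mean in the EGFP-positive fraction and 2 a higher one, and Sox2 alone was called. All 8 listed photoreceptor precursor genes were called higher in the EGFP-positive fraction, where 0.820% of all features were. The arrays had medians of 218.4 to 222.9, and the number of arrays limits the precision.

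Expression of the mitotic genes had a lower mean in EGFP-positive than in EGFP-negative cells for all 37 genes, against 52.2% of all features. Cenpt, however, turned to a positive difference, of 0.0059, with each array centred on its median and under 3 other alternatives. The median log2 difference was -1.02, or 2.02-fold higher expression in the EGFP-negative fraction, where the median over all features was -0.01. In 19 of the 37 genes the EGFP-negative mean was at least 2-fold higher, against 1.02% of all features. Only Oip5 was called lower, which is 1 of 37 genes where 0.143% of all features were called lower. None was called higher, where 0.820% of all features were. At an unadjusted p under 0.05, 29 of the 37 genes were lower, where 9.83% of all features were, and 0 were higher, where 9.34% were. The fractions did not overlap in 33 of them, with both EGFP-positive values below both EGFP-negative values, as in 25.3% of all features, and the exceptions were Bub3, Zw10, Aurka and Cenpt. In 0 genes were both EGFP-positive values the higher ones, as in 22.3% of all features. In bulk samples of this kind fewer cells of a type and less RNA per cell cannot be told apart.

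**Figure D1:**
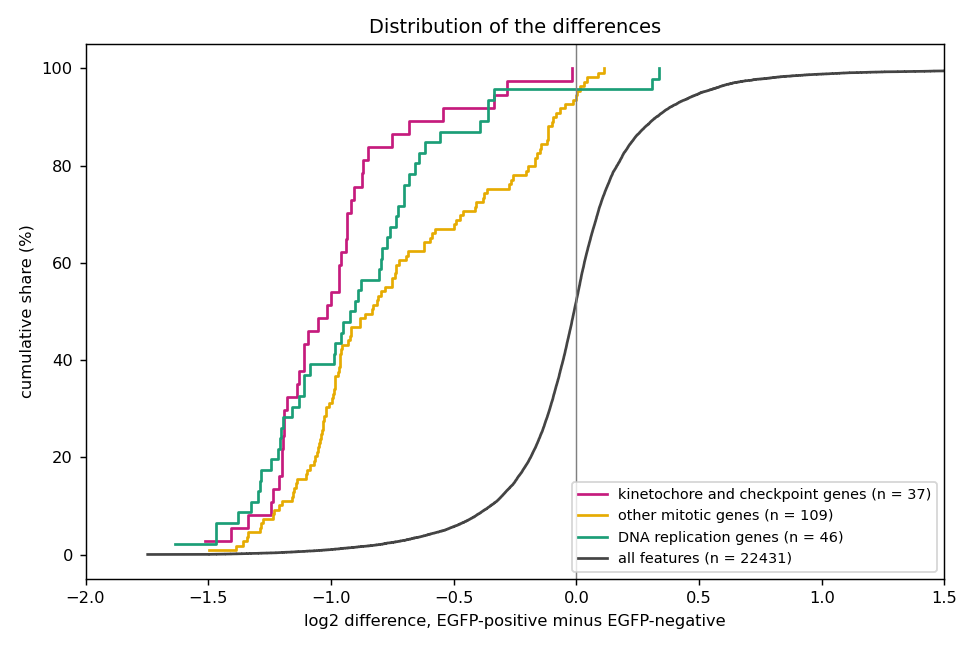
Cumulative share in percent of genes or features (vertical axis) by log2 difference, EGFP-positive minus EGFP-negative (horizontal axis), for the 37 mitotic genes, 109 other mitotic genes, 46 DNA replication genes and all 22431 features. The line of the 37 genes lies left of 0 throughout, with a median of -1.02, while the line of all features is centred near 0.

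The gap between the large size of these differences and the single call went with a wide spread between replicates. The SE had a median of 0.30 over the 37 genes, against 0.12 over all features. EGFP-positive replicate 2 was below EGFP-positive replicate 1 in 36 of the 37 genes (45.5% of all features), by a median of -0.86 on the log2 scale. EGFP-negative replicate 2 was below EGFP-negative replicate 1 in 32 (57.5% of all features), by a median of -0.39. The same 32 genes were lower in replicate 2 of both fractions, as were 32.4% of all features. From low to high, the order of EGFP-positive replicate 2, EGFP-positive replicate 1, EGFP-negative replicate 2 and EGFP-negative replicate 1 held in 29 of the 37 genes and in 11.7% of all features. It was not particular to these genes, since it also held in 76 of 109 other mitotic genes and in 31 of 46 DNA replication genes.

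Because of this order, the size of the difference depended on which arrays were compared. The median over the 37 genes was -0.79 for EGFP-positive replicate 1 minus EGFP-negative replicate 1 and -0.35 minus EGFP-negative replicate 2. For EGFP-positive replicate 2 it was -1.63 and -1.27. Between arrays of the same replicate number, all 37 genes were lower in the EGFP-positive fraction in both pairs. Of all 22431 features, 13098 were lower between the arrays of replicate 1 and 10209 between those of replicate 2. Between arrays of different number, 34 of the 37 genes were lower in EGFP-positive replicate 1 than in EGFP-negative replicate 2 (11398 of all features). In EGFP-positive replicate 2, 36 were lower than in EGFP-negative replicate 1 (11659 of all features). The nearest pair of arrays therefore differed by less than the EGFP-positive replicates differed from each other. In fits with 1 array left out, the median over the 37 genes was -1.45 without EGFP-positive replicate 1 and -0.56 without EGFP-positive replicate 2. It was -0.82 without EGFP-negative replicate 1 and -1.23 without EGFP-negative replicate 2. Each such fit assumes that the lone array of a fraction varies like the arrays of the other.

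**Figure D2:**
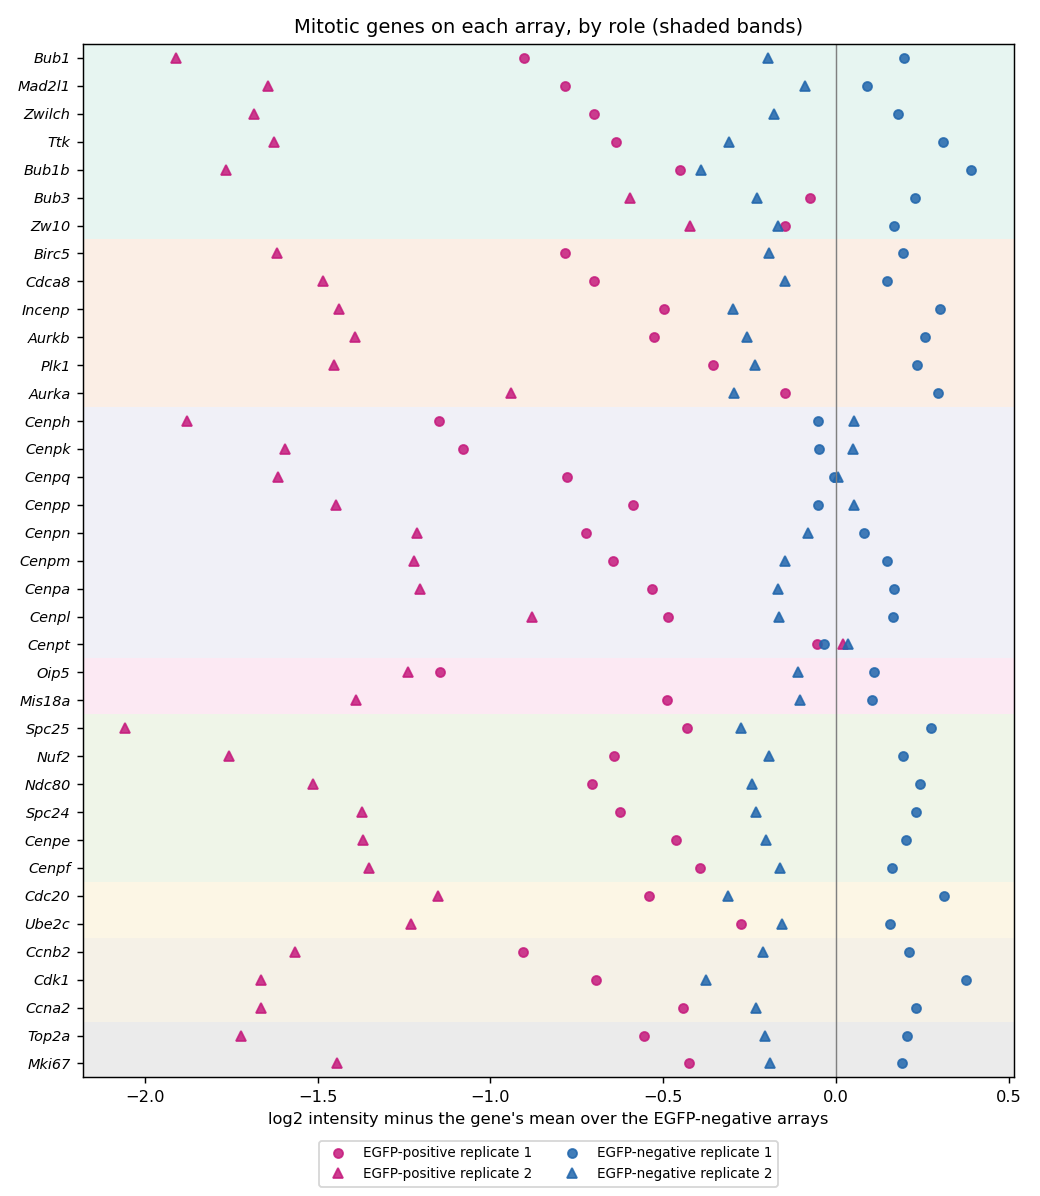
Log2 intensity of each of the 37 genes on the 4 arrays, relative to the gene's mean over the EGFP-negative arrays, which is the line at 0. Rows are genes, shaded by role, with magenta points for EGFP-positive and blue points for EGFP-negative arrays, circles for replicate 1 and triangles for replicate 2. The EGFP-positive replicate 2 triangles lie farthest to the left in most rows, and the 4 points of Cenpt lie together.

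Promoters of genes expressed late in the cell cycle are known for a short element called the CHR, read by MuvB complexes, together with CCAAT boxes bound by NF-Y. E2F sites are better known from genes of the start of DNA synthesis. Because these genes were lower together, their RefSeq promoter windows (GRCm38.p6, 250 bases before to 50 after the gene start) were searched on both strands. A CHR was taken as the letters TTTGAA, or the variant form TTTAAA. Boxes of NF-Y were taken as the letters CCAAT. An E2F site was taken as TTCCCGC in its short form, as TTTCGCGC in a longer one, or as TTTGGCGC in another. Windows were matched for 32 of the 37 genes, and for Bub3 and Cenpk, which have several starts, the first in the table was taken. Not matched were Zwilch, Aurkb, Incenp, Spc24 and Ccna2.

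A CHR match was present in 23 of the 32 windows (71.9%), against 27.8% of all 27025 windows. Within the 100 bases around the start it was present in 18 (56.2%), against 8.24% of all windows. A CCAAT box was present in 24 of the 32 windows, against 37.9% of all windows, and both elements together in 19 (59.4%), against 10.9%. An E2F match was present in 6 (18.8%), against 5.40%. The windows of 38 DNA replication genes held an E2F match in 19, a CHR match in 9 (23.7%) and a CCAAT box in 22 (57.9%). Of 92 windows of other mitotic genes, 46 held a CHR match, 52 (56.5%) a CCAAT box and 18 (19.6%) an E2F match. Matches of different motifs overlapped at 1 place, in Cdca8. A match is a description of these letters and shows no binding.

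The windows of 5 genes are shown because they span the patterns in the data. Oip5 is the gene that was called, Ccnb2 and Cdk1 hold both elements close to the start, Spc25 had the widest spread between replicates, and Cenph had the largest difference and no CHR match. Capitals mark matches to the CHR, CCAAT and E2F letters on either strand, and each sequence runs 5′ to 3′ toward the gene. The windows are, in GRCm38.p6 and all on the minus strand, chr2:119618456-119618755 for Oip5, chr9:70421505-70421804 for Ccnb2, chr10:69352863-69353162 for Cdk1, chr2:69206164-69206463 for Spc25 and chr13:100775850-100776149 for Cenph.
Oip5: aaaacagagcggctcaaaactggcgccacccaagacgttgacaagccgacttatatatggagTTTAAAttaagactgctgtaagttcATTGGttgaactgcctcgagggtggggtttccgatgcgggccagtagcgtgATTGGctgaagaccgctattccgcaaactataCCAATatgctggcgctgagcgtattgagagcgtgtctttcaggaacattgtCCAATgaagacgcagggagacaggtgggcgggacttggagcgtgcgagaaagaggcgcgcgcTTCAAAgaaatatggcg
Ccnb2: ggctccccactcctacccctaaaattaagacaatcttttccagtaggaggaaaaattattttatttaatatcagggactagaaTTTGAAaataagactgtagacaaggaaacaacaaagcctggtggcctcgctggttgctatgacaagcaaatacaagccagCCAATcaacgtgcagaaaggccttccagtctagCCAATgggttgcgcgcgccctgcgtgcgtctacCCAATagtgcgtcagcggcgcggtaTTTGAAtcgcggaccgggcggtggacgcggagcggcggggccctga
Cdk1: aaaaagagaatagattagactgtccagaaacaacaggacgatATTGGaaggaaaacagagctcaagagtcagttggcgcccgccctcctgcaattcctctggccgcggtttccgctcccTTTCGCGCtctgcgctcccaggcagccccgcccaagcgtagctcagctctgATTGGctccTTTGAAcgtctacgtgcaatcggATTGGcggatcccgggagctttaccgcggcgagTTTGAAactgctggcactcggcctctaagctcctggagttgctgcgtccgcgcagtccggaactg
Spc25: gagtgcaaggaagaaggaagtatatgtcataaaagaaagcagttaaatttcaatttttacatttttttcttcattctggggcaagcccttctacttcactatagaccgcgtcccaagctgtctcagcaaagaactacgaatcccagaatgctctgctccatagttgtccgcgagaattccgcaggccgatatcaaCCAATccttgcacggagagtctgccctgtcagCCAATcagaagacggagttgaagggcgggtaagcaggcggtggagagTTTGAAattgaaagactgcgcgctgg
Cenph: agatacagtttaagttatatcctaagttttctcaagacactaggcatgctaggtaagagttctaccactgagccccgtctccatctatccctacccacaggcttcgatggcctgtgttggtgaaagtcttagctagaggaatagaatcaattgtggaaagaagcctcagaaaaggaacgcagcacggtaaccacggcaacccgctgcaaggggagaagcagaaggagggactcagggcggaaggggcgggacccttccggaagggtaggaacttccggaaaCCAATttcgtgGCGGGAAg
Oip5 has an inverted CHR at base 34 after the start, another CHR 188 bases before it and 4 CCAAT boxes between them. In Ccnb2 CCAAT boxes begin 87, 54 and 21 bases before the start and a CHR begins at base 5 after it, with another 167 bases before the start. In Cdk1 a CHR lies 15 bases before the start, downstream of inverted CCAAT boxes 80 and 48 bases before it, and a second CHR and an E2F match lie 71 and 131 bases before it. Spc25 has CCAAT boxes 55 and 23 bases before the start and a CHR at base 25 after it. Cenph has a CCAAT box and an inverted E2F match, both in the bases after the start.

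**Figure D3:**
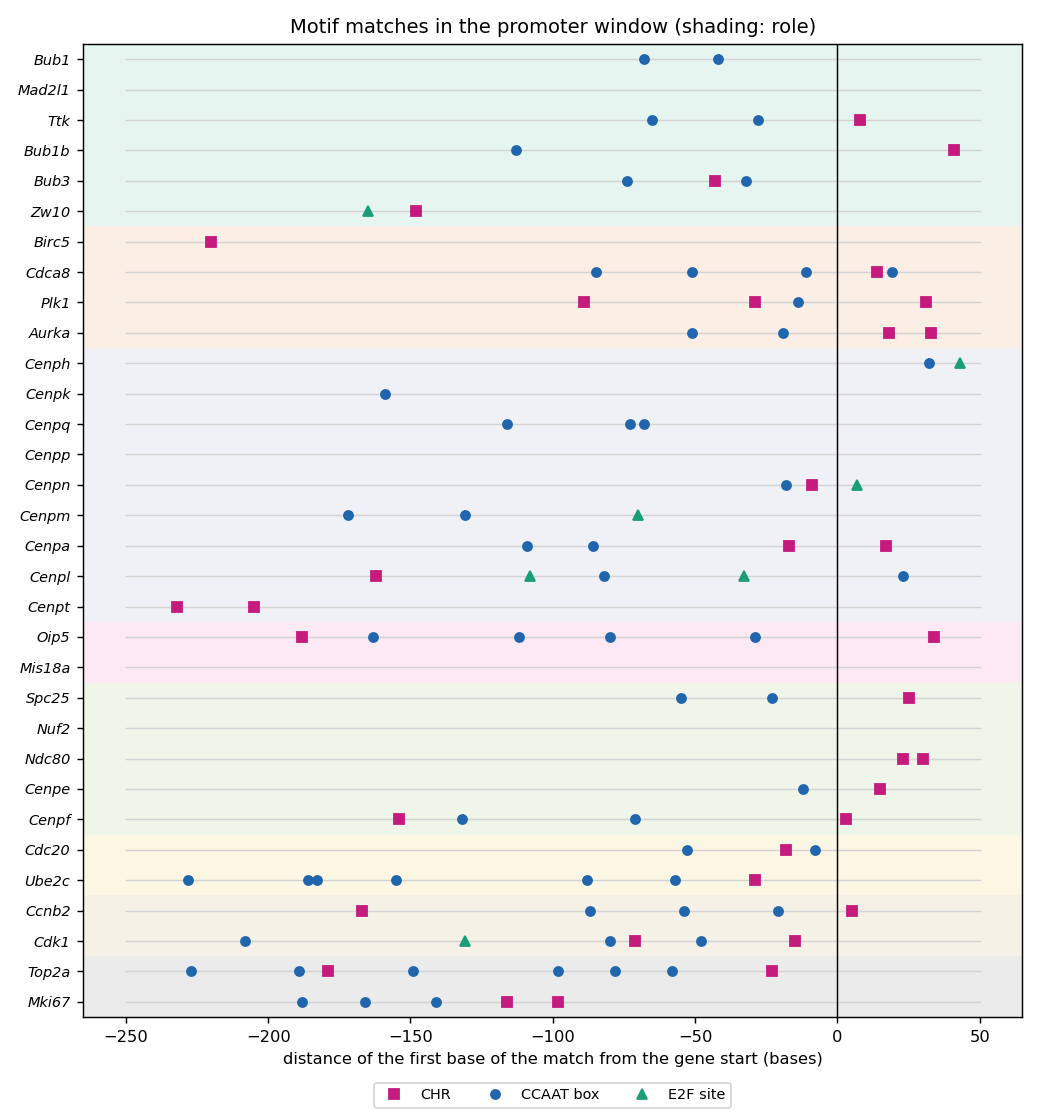
Positions of motif matches in the promoter windows of 32 genes, as distance in bases of the first base of the match from the gene start (vertical line at 0). Rows are genes, shaded by role, with squares for CHR, circles for CCAAT box and triangles for E2F site matches on either strand. Of the windows, 18 hold a CHR match within the 100 bases around the start, among them 2 of the 9 of the inner centromere network.

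Among the 7 checkpoint genes, 5 had differences beyond 2-fold and none was called. Bub1, a kinase that recruits checkpoint proteins to kinetochores, read 839.2 and 418.0 in the EGFP-positive replicates, against 1801.1 and 1369.7 in the EGFP-negative ones. Both EGFP-positive values lay below both EGFP-negative values, and the difference was -1.41 ± 0.35 (limma adjusted p = 0.125). Mad2l1, which encodes the protein that binds and inhibits Cdc20, read 1179.2 and 649.8 in EGFP-positive and 2158.6 and 1907.4 in EGFP-negative cells. Its difference was -1.21 ± 0.29 (adjusted p = 0.117), and the fractions did not overlap. Zwilch, part of the complex that brings dynein to kinetochores, read 451.6 and 228.6 in EGFP-positive and 831.9 and 648.0 in EGFP-negative cells (-1.19 ± 0.34, adjusted p = 0.153).

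The other checkpoint genes fell into a larger and a smaller size of difference. The kinase gene Ttk, whose product starts checkpoint signalling, differed by -1.13 ± 0.37, and Bub1b, an inhibitor of the anaphase-promoting complex, by -1.11 ± 0.48. In Bub1b the 937.9 of EGFP-positive replicate 1 lay just below the 977.7 of EGFP-negative replicate 2. Bub3, the partner of both Bub kinases, read 1333.0 and 929.6 in EGFP-positive and 1647.1 and 1199.3 in EGFP-negative cells, and here the fractions overlapped (-0.34 ± 0.23, adjusted p = 0.546). Zw10, the partner of Zwilch that also acts in membrane trafficking, read 616.5 and 509.8 in EGFP-positive and 767.4 and 607.6 in EGFP-negative cells (-0.28 ± 0.16, adjusted p = 0.447), and these values overlapped as well. The 95% interval was -0.93 to 0.26 for Bub3 and -0.70 to 0.13 for Zw10.

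The mitotic kinases and the chromosomal passenger complex, which places Aurora B at centromeres and corrects wrong attachments, had a median difference of -0.96 over 6 genes and no call. Birc5, which encodes survivin and directs the complex to chromatin, read 377.3 and 211.8 in EGFP-positive and 742.6 and 568.4 in EGFP-negative cells (-1.20 ± 0.30, adjusted p = 0.127). Cdca8, which encodes the subunit borealin, read 680.7 and 395.2 in EGFP-positive and 1224.5 and 999.9 in EGFP-negative cells (-1.09 ± 0.28). Incenp, the scaffold of the complex, read 866.2 and 451.3 in EGFP-positive and 1505.7 and 994.1 in EGFP-negative cells (-0.97 ± 0.36). In these 3 genes both EGFP-positive values were below both EGFP-negative values.

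The kinase genes themselves differed less than Birc5 and Cdca8, and Aurkb was close to Incenp. Aurkb, the kinase of the complex, differed by -0.96 ± 0.32, and Plk1, which acts from entry into mitosis to its end, by -0.90 ± 0.38. Aurka, the Aurora kinase of spindle poles, read 709.9 and 410.3 in EGFP-positive and 964.9 and 641.4 in EGFP-negative cells. EGFP-positive replicate 1 was thus above EGFP-negative replicate 2, and the difference was -0.54 ± 0.32 (adjusted p = 0.454).

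The inner centromere network comprises CENP-A and the constitutive proteins assembled on it, and its 9 measured genes had both the largest and the smallest difference of the 37. Cenph read 290.9 and 175.4 in EGFP-positive and 622.2 and 668.8 in EGFP-negative cells (-1.51 ± 0.25, adjusted p = 0.0715), a 2.86-fold higher EGFP-negative mean. Cenpk, whose product forms 1 subcomplex with that of Cenph, read 189.4 and 132.6 in EGFP-positive and 386.8 and 414.4 in EGFP-negative cells (-1.34 ± 0.19, adjusted p = 0.0570). Cenpq, of the CENP-O/P/Q/U subcomplex, read 379.9 and 212.6 in EGFP-positive and 649.2 and 654.0 in EGFP-negative cells (-1.20 ± 0.28, adjusted p = 0.112). In all 3 genes the EGFP-negative replicates lay close together and well above both EGFP-positive replicates. Cenpk passed the threshold in limma with a robust variance trend (adjusted p = 0.0455) and in the fit over genes in place of features (adjusted p = 0.0459).

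Cenpp, of the same subcomplex as Cenpq, differed by -1.02 ± 0.28, and Cenpn, which reads CENP-A nucleosomes together with Cenpl, by -0.97 ± 0.19. Cenpm, of the same subcomplex as Cenph and Cenpk, differed by -0.93 ± 0.22, Cenpa, the centromeric histone itself, by -0.87 ± 0.25, and Cenpl by -0.68 ± 0.19. None of these 5 genes was called, and in each the fractions did not overlap. Cenpt, which binds DNA and links the network to the Ndc80 complex, stood apart. It read 532.7 and 561.2 in EGFP-positive and 540.5 and 567.6 in EGFP-negative cells (-0.02 ± 0.10, adjusted p = 0.965). All 4 values of Cenpt lay together, with a 95% interval of the difference from -0.28 to 0.24.

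**Figure D4:**
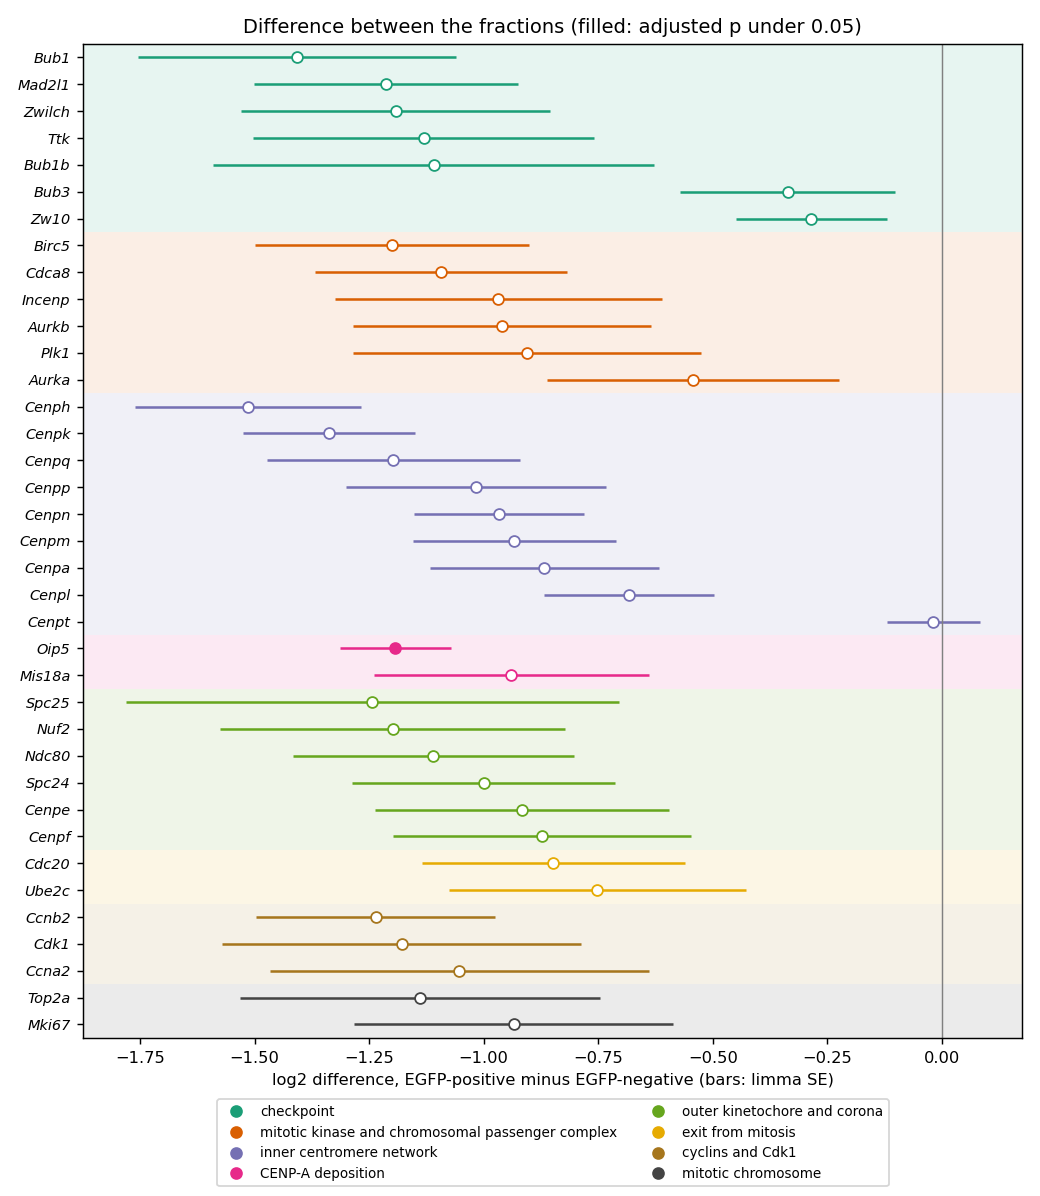
Log2 difference, EGFP-positive minus EGFP-negative, of the 37 genes with limma's SE as bars (2 arrays per fraction), grouped and coloured by role. The filled point marks Oip5, the gene with an adjusted p under 0.05, and open points did not pass. Points lie between -1.51 (Cenph) and -0.02 (Cenpt).

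Of the genes that deposit new CENP-A at centromeres, Oip5 was called. Oip5, known as Mis18 beta in human cells, read 120.3 and 112.9 in the EGFP-positive replicates, against 287.3 and 247.0 in the EGFP-negative ones. The replicates lay close together in both fractions. Expression fell by 1.19 ± 0.12 on the log2 scale in EGFP-positive cells (adjusted p = 0.0290), a 2.29-fold higher EGFP-negative mean. Both EGFP-positive values lay below the medians of their arrays, 219 and 218.4, and both EGFP-negative values above theirs, 222 and 222.9. The mean log2 intensity of Oip5 stood at percentile 42.7 of all features, the lowest of the 37 genes. Whether the close replicates, and with them the call, go with this low intensity was not tested. With 1 array left out, the log2 difference of Oip5 was -1.24 without EGFP-positive replicate 1 and -1.15 without EGFP-positive replicate 2. It was -1.08 without EGFP-negative replicate 1 and -1.30 without EGFP-negative replicate 2. Oip5 did not stay past the threshold in each of these fits, which leave 1 array in a fraction. Mis18a, its partner, had a smaller difference and a wider spread. Mis18a read 696.5 and 373.3 in EGFP-positive and 1051.1 and 910.3 in EGFP-negative cells (-0.94 ± 0.30, adjusted p = 0.188).

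The outer kinetochore genes had a median difference of -1.05 over 6 genes, none of them called, and the fractions did not overlap in any of the 6. The Ndc80 complex, which grips microtubules, is made of Ndc80, Nuf2, Spc24 and Spc25. Spc25 read 1225.9 and 397.2 in EGFP-positive and 1998.4 and 1365.4 in EGFP-negative cells (-1.24 ± 0.54, adjusted p = 0.303). Nuf2 read 754.5 and 348.4 in EGFP-positive and 1347.2 and 1027.9 in EGFP-negative cells (-1.20 ± 0.38, adjusted p = 0.182). Ndc80 read 455.8 and 260.3 in EGFP-positive and 880.0 and 628.2 in EGFP-negative cells (-1.11 ± 0.31, adjusted p = 0.148).

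The 4 subunits of this complex thus had like differences, and in each EGFP-positive replicate 2 was the lowest of the 4 arrays. Spc24 read 337.2 and 201.0 in EGFP-positive and 610.7 and 443.7 in EGFP-negative cells (adjusted p = 0.158). Cenpe, a kinesin that moves chromosomes to the spindle equator, differed by -0.92 ± 0.32, and Cenpf, of the fibrous corona, by -0.87 ± 0.33. Cenpf, the smallest difference of this role, read 1030.6 and 531.3 in EGFP-positive and 1515.4 and 1211.4 in EGFP-negative cells.

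The cyclins and Cdk1 drive entry into mitosis, and their 3 genes had a median difference of -1.18. Ccnb2, a B-type cyclin, read 792.6 and 500.9 in EGFP-positive and 1717.7 and 1282.1 in EGFP-negative cells (-1.24 ± 0.26, adjusted p = 0.0979). Cdk1, the kinase that both cyclins activate, read 1031.3 and 525.8 in EGFP-positive and 2164.5 and 1284.5 in EGFP-negative cells (-1.18 ± 0.39, adjusted p = 0.198). Ccna2, a cyclin of DNA synthesis and of entry into mitosis, read 2114.6 and 907.3 in EGFP-positive and 3374.2 and 2447.2 in EGFP-negative cells (-1.05 ± 0.41, adjusted p = 0.259). In each of the 3 genes the fractions did not overlap, and none was called.

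Cdc20 and Ube2c, which act with the anaphase-promoting complex at the end of mitosis, had smaller differences. Cdc20, the activator that the checkpoint inhibits, read 463.9 and 303.8 in EGFP-positive and 839.8 and 543.5 in EGFP-negative cells (-0.85 ± 0.29, adjusted p = 0.206). Ube2c, a ubiquitin-conjugating enzyme, read 790.6 and 408.0 in EGFP-positive and 1066.0 and 858.7 in EGFP-negative cells (-0.75 ± 0.32, adjusted p = 0.301). Both genes had every EGFP-positive value below every EGFP-negative value.

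The mitotic chromosome genes Top2a and Mki67 followed the same order of arrays. Top2a, which untangles sister chromatids, read 2846.8 and 1269.4 in EGFP-positive and 4831.8 and 3630.0 in EGFP-negative cells (-1.14 ± 0.39, adjusted p = 0.212). Mki67, the proliferation antigen that coats mitotic chromosomes, read 2814.4 and 1391.8 in EGFP-positive and 4315.5 and 3316.7 in EGFP-negative cells (-0.93 ± 0.35, adjusted p = 0.238).

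Within the list, the genes differed in how the EGFP-negative replicates compared. Replicate 2 minus replicate 1 of the EGFP-negative fraction had a median of 0.01 over the 9 inner centromere genes, against -0.43 over the outer kinetochore genes, -0.49 over the kinases and passenger complex and -0.46 over the cyclins and Cdk1. It was 0.10 each for Cenph, Cenpk and Cenpp, 0.07 for Cenpt and 0.01 for Cenpq, the 5 genes above 0, and -0.78 for Bub1b and -0.75 for Cdk1 at the other end. The DNA replication genes had a median of -0.09 by the same measure. In the EGFP-positive fraction replicate 2 minus replicate 1 was -0.58 over the inner centromere genes, -0.53 over the DNA replication genes and -0.93 over the outer kinetochore genes. Single arrays were compared here, so no test of these differences was possible.

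The same difference between the EGFP-negative replicates was read against the promoter letters, as a description with no test. The 18 genes with a CHR match in the 100 bases around the start were all lower in EGFP-negative replicate 2 than in replicate 1, by -0.78 to -0.16. Of all features, 57.5% were lower by this comparison of 2 single arrays. Of the 14 genes whose window had none there, 9 were lower, and the range was -0.40 to 0.10. Over the whole window, 22 of 23 genes with a CHR match were lower, against 5 of 9 without. With a CCAAT box 21 of 24 were lower, against 6 of 8 without, and with an E2F match 5 of 6, against 22 of 26 without. The matches near the start also followed role, since 2 of the 9 inner centromere genes had one. The median difference between the fractions was -1.03 with a CHR match near the start and -1.11 without it. Between the EGFP-positive replicates, the median of replicate 2 minus replicate 1 was -0.86 with such a match and -0.84 without. There 18 of 18 genes with the match and 13 of 14 without it were lower, as were 45.5% of all features.

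**Figure D5:**
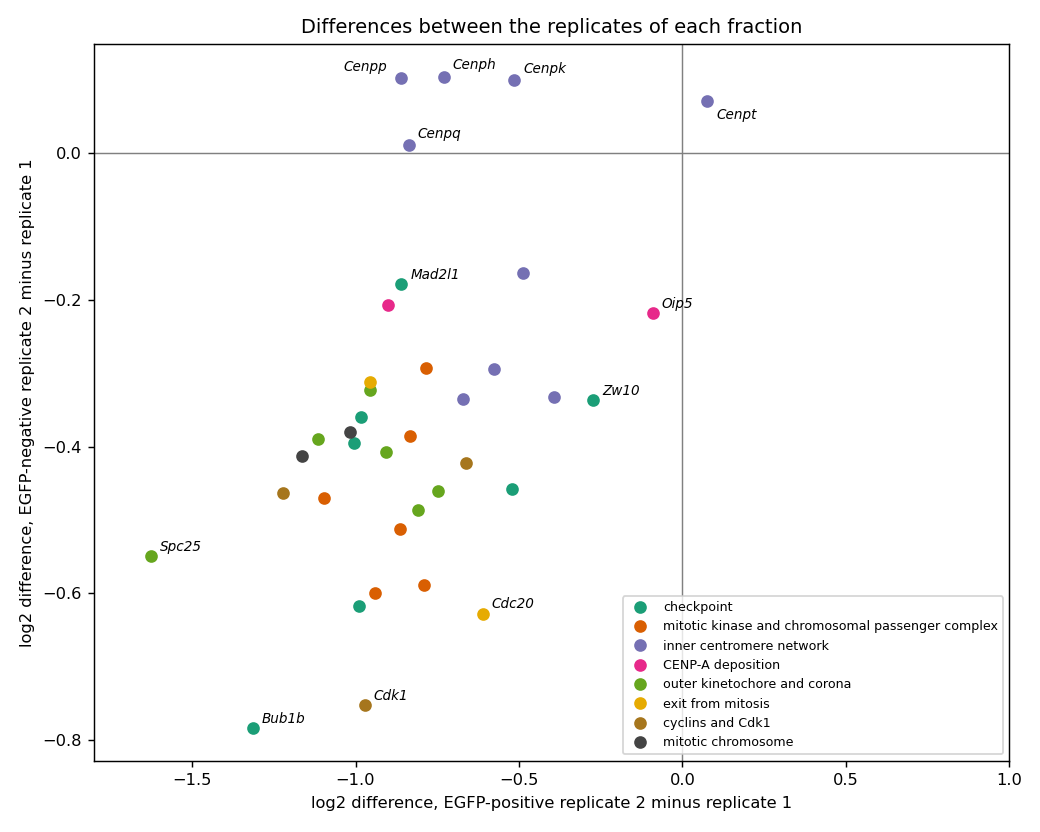
Log2 difference of replicate 2 minus replicate 1 in the EGFP-positive fraction (horizontal axis) and in the EGFP-negative fraction (vertical axis), 1 point per gene, coloured by role. Most points lie in the lower left, below 0 on both axes, while Cenph, Cenpk, Cenpp, Cenpq and Cenpt lie above 0 on the vertical axis.

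Beyond the 37 genes, 109 of 116 listed other genes of mitosis were measured, and they had a median difference of -0.83. None was called by limma in either direction, 63 were lower and 0 higher at an unadjusted p under 0.05, and 103 had a lower mean. Of all features, 0.143% were called lower and 0.820% higher, and 52.2% had a lower mean. At an unadjusted p under 0.05, 9.83% of all features were lower and 9.34% higher. The differences of largest size were those of Pbk, a mitotic kinase (-1.50 ± 0.39), Kif18a, a kinesin that damps chromosome movement (-1.39 ± 0.23), Kntc1, the third subunit of the complex of Zwilch and Zw10 (-1.36 ± 0.32), and Fbxo5, an inhibitor of the anaphase-promoting complex (-1.34 ± 0.43). Their adjusted p ranged from 0.0759 for Kif18a to 0.188 for Fbxo5. By role, the median was -1.01 over 36 genes of the spindle and cytokinesis, -0.92 over 15 genes of entry into mitosis and -0.69 over 25 further kinetochore and centromere genes. It was -0.38 over 17 condensin and cohesin genes and -0.24 over 16 genes of the anaphase-promoting complex and its regulators.

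DNA replication genes had a median of -0.91 over 46 genes, and 44 had a lower mean, against 52.2% of all features. Rfc4, of the clamp loader, read 654.1 and 616.6 in EGFP-positive and 1497.5 and 2057.3 in EGFP-negative cells. Gins1, of the replicative helicase, read 233.9 and 176.6 in EGFP-positive and 506.1 and 512.7 in EGFP-negative cells. Rfc4 fell by 1.47 ± 0.17 (adjusted p = 0.0408) and Gins1 by 1.33 ± 0.16 (adjusted p = 0.0416). Thus 2 of 46 genes were called lower, against 0.143% of all features. At an unadjusted limma p under 0.05, 44 were lower and 1 higher, against 9.83% and 9.34% of all features. Both EGFP-positive values lay below both EGFP-negative values in 44 of the 46, as in 25.3% of all features. Prim1, the primase subunit, read 569.7 and 320.8 in EGFP-positive and 1363.5 and 1294.4 in EGFP-negative cells (-1.64 ± 0.27, adjusted p = 0.0751). Rpa2, of the complex that binds single-stranded DNA, differed by -1.47 ± 0.24 and Pcna, the sliding clamp, by -1.38 ± 0.25. The difference between the replication and the mitotic genes was not tested.

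Some markers of other retinal cells moved with some of these values, and their part in the results was not tested. The summed intensity of 11 measured of 12 listed progenitor genes was 25188.7 and 19314.2 on the EGFP-positive and 34871.2 and 34935.3 on the EGFP-negative arrays, and 9 of the 11 had a lower mean. Sox2 alone of them was called. The 10 ganglion cell genes summed to 5296.3 and 8906.7 on the EGFP-positive and 4038.0 and 9483.3 on the EGFP-negative arrays, so they were higher in replicate 2 of both fractions. The 7 endothelial genes summed to 3985.6 and 1936.2 on the EGFP-positive and 5688.0 and 3645.9 on the EGFP-negative arrays, and Kdr, a receptor gene of endothelium, held most of that sum, at 3171.2 and 1107.0 in EGFP-positive and 4888.5 and 2883.9 in EGFP-negative cells. The other 6 endothelial genes read 57.8 to 290.7. The 6 glial genes summed to 3648.6 and 2616.1 on the EGFP-positive and 5894.8 and 4759.0 on the EGFP-negative arrays, most of it from Glul and Slc1a3. In both sums, as in most of the mitotic genes, EGFP-positive replicate 2 was lowest and EGFP-negative replicate 1 highest. Gene by gene, EGFP-positive replicate 2 was below replicate 1 in 3 of 7 endothelial and 5 of 6 glial genes. The median of that difference over the endothelial genes was 0.0045, so their sum follows Kdr and not the list. The median difference between fractions was 0.10 over the ganglion cell genes, 0.00065 over 7 endothelial genes, -0.07 over 7 microglial genes and 0.02 over 5 of 7 listed erythroid genes. None of the genes of these 4 lists was called. The 6 glial genes had a median of -0.0045 and no call, and all 10 amacrine and horizontal cell genes had a higher mean, with 2 called and a median of 0.41. No marker was listed at 0, the lowest value of the whole table being 18.9.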

How the data were processed

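RNA of 4 sorted samples, 100 ng each per the labels, was hybridised to 1 array each. The deposited intensity values are linear and normalised, and the submitters' processing notes name RMA and mm8. For the RMA version and filters, the sources used here give nothing. The linear scale was inferred from the range of 18.9 to 36625.2. Log2 was taken without a pseudocount, and limma 3.58.1 in R 4.3.3 (lmFit, eBayes without trend) compared the fractions over all 22431 features, without the replicate number. P-values are two-sided. The variance had 5.26 degrees of freedom, 2 of them residual. The fit was tested on simulated data. Alternatives changed the variance model, scaling, filter, features per gene, replicate block and arrays. All 37 genes could be named. Values on every array are given for called genes, the 3 largest differences of each role and the smallest ones. Other lists contributed called genes and their 4 largest differences. The genes and lists were chosen with earlier results of these data known, and those named outside this rule were chosen after their values were seen.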

Additional observations from a re-analysis of the deposited data

How the results depend on the processing

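The 37 genes gave 407 values over 11 alternatives, of which 334 kept their direction and their side of the threshold, 66 kept the direction and newly passed it, 3 no longer passed it and 4 reversed. The 4 reversals were all of Cenpt, at 0.0059 with each array centred on its median, 0.0022 after another quantile normalisation, 0.019 without EGFP-positive replicate 1 and 0.017 without EGFP-negative replicate 2, with a range of -0.056 to 0.019 when 1 array was left out. The variance models, the filter, the fit over genes and the replicate block leave the difference of each of the 37 genes unchanged by construction. Only the scalings and the fits with an array left out could therefore reverse a sign. With the robust trend, and in the fit over genes, 2 of the 37 genes and 1 other mitotic gene were called. Leaving out 1 array gave 0 to 31 of the 37 genes called, 0 to 62 other mitotic genes, 0 to 36 replication genes and 0 to 1429 features, against 216 with all arrays. The median over the 37 genes ranged from -1.45 to -0.56 across these fits, the weaker end being without EGFP-positive replicate 2. The labels share replicate numbers without saying that a number marks a shared sort or litter. Deviations from the fraction means correlated at 0.48 across features between same-numbered samples. A replicate block, which leaves fewer residual degrees of freedom, called 34 of the 37 genes lower, 76 other mitotic genes, 39 replication genes and 2877 features, of which 1500 were lower (6.69% of all features) and 1377 higher. Beyond the construction of each alternative, the cause was not tested.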

Other observations

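Some genes listed here for glia or progenitors followed the order of the mitotic genes, 5 of 11 progenitor and 2 of 6 glial genes, against 11.7% of all features. Those shown were chosen after their values were seen. Slc1a3, a glutamate transporter gene of glia and progenitors, read 781.9 and 384.0 in the EGFP-positive replicates and 1473.6 and 1193.1 in the EGFP-negative ones (log2 difference -1.27 ± 0.34, limma adjusted p = 0.143). Hes1, a Notch target that keeps progenitors undifferentiated, read 745.1 and 340.2 in EGFP-positive and 1708.9 and 1185.6 in EGFP-negative cells (-1.50 ± 0.40, adjusted p = 0.138). The progenitor gene Rax did not follow it, reading 2442.3 and 2193.1 in EGFP-positive and 2247.9 and 2136.2 in EGFP-negative cells (0.08 ± 0.11, adjusted p = 0.803). Gfap, of astrocytes, read 99.9 to 121.7 over the 4 arrays.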
